A study of Mus musculus with 4 samples.

Results

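The immunoglobulin light chains of tumour-infiltrating B cells were read from every kappa (IGK) and lambda (IGL) contig of a pair of single-cell B cell receptor libraries. The control library held 138 light-chain contigs in 136 of its 139 V(D)J barcodes, and the knockout library held 327 in 306 of 307. Together these 465 contigs used 76 V genes, 73 of them IGKV genes of 16 families, and 7 J genes. Recipients were female C57BL/6 mice aged 12 to 16 weeks with loxP-flanked Prdm1 alleles (Prdm1 f/f), either without cre (control) or with CD19cre, which drives recombination in the B lineage (knockout). MC38 colon carcinoma cells grew under the skin of all mice, with no other treatment named, and tumours of 11 recipients per genotype were pooled on day 18. B220+ and CD138+ cells were sorted separately and mixed, and the mixing ratio, which can shape every share of cells, is not given in the sources used here. Each genotype had 1 V(D)J library and 1 matched 5′ expression library. With 1 library per genotype no difference has a replicate check, and no test was made. Date stamps on the files differ between the genotypes, and batch and genotype cannot be told apart. Shares carry exact Clopper-Pearson 95% intervals, which describe counting error and leave out any variation among mice.

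A light chain is joined from a V and a J segment without a D segment, at the kappa locus or at the small lambda locus, and pairs with the heavy chain to form the antigen-binding site. A developing B cell can rearrange its light-chain loci again, joining another V segment to a J segment farther in, when its first receptor fails or binds self. After activation, somatic mutation changes single bases of the V region, and plasma cells make light-chain transcripts in very large amounts. Prdm1 encodes Blimp-1, which plasma cell differentiation requires.

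The libraries differed before any light chain was compared. A barcode with at least 100 Jchain UMIs (unique molecular identifiers, 1 per captured transcript) is called Jchain-high here. Jchain encodes the joining chain of IgM and IgA polymers and is abundant in antibody-secreting cells. There were 47 Jchain-high barcodes in the control and 0 in the knockout, and all 47 had a light-chain contig. Among Jchain-low barcodes with at least 3 UMIs of the B cell receptor genes Cd79a and Cd79b, recovery of a light chain was 89 of 242 control barcodes (36.8%, interval 30.7 to 43.2) and 302 of 312 knockout barcodes (96.8%, 94.2 to 98.5). The median was 2.74 reads per UMI in control light-chain contigs and 130 in knockout contigs. The control contigs are therefore given below also by Jchain level, and V gene usage is given also from the expression libraries, which do not depend on contig recovery. Markers of B cells were found in 442 of 442 light-chain barcodes. Markers of other cells were also read. At least 1 T cell marker UMI was found in 8 of 136 control and 15 of 306 knockout light-chain barcodes, and at least 1 plasmacytoid dendritic marker UMI in 80 and 101. NK cell markers were read in 19 of 47 Jchain-high, 1 of 89 Jchain-low and 22 of 306 knockout barcodes, and tumour or epithelial markers in 33, 2 and 14. The median expression depth of these groups was 20862, 3550 and 2780 UMIs, and the part of other cells in the results was not tested. No V(D)J barcode occurred in both libraries, and 3 expression barcodes did. The targeted gene gave 43 Prdm1 UMIs in Jchain-high control barcodes, 2 in the 89 Jchain-low ones and 20 in the 306 knockout ones. The deleted part of Prdm1 is not given in the sources used here, so these 5′ transcripts do not check the genotype label.

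The contig calls matched the expression libraries closely. The V gene with the most UMIs in the expression matrix was the called V gene in 133 of 136 control barcodes and in 301 of 306 knockout barcodes. The chain, kappa or lambda, was the same in all 442.

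Identical light-chain junctions recurred in both genotypes. Of 289 distinct light chains, defined by V gene, J gene and CDR3 nucleotides, 39 were found in both genotypes, which is 32.5% of the control's 120 and 18.75% of the knockout's 208. Of these, 37 were kappa and 2 lambda, and all 39 had a CDR3 of 11 codons, counted with the anchor codons at both ends. No heavy chain (IGHV gene, IGHJ gene and CDR3 nucleotides) was shared, out of 130 in the control and 272 in the knockout. The sequences below show the extent of this sharing for IGKV1-135 and IGKV1-117. Bases common to all versions of a V gene are in lower case, and those from the first differing base on, at the V to J joint, are in capitals. Each sequence was read in both libraries.
IGKV1-135 with IGKJ1, 1 control and 2 knockout barcodes: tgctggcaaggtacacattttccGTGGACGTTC
IGKV1-135 with IGKJ1, 1 control and 3 knockout barcodes: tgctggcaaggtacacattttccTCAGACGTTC
IGKV1-135 with IGKJ1, 2 control and 1 knockout barcodes: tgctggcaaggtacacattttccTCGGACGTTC
IGKV1-135 with IGKJ2, 3 control and 1 knockout barcodes: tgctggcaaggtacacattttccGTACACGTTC
IGKV1-117 with IGKJ1, 1 control and 6 knockout barcodes: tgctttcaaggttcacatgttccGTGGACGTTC
IGKV1-117 with IGKJ1, 1 control and 2 knockout barcodes: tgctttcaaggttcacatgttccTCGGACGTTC
IGKV1-117 with IGKJ2, 3 control and 3 knockout barcodes: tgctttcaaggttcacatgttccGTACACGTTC

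The first 23 bases were the same in all sequences of each V gene, and the same 3 endings (GTGGACGTTC, TCGGACGTTC and GTACACGTTC) followed both V genes. A light chain shared by the genotypes was carried by 49 control barcodes (36.0%) and 74 knockout barcodes (24.2%). A light chain found in at least 2 clones of either genotype was carried by 12 of 47 Jchain-high control barcodes (25.5%, 13.9 to 40.3). In Jchain-low control barcodes this was 47 of 89 (52.8%, 41.9 to 63.5), and in knockout barcodes 165 of 306 (53.9%, 48.2 to 59.6). The Jchain-high share lay below both others with intervals apart, and the Jchain-low and knockout shares lay within 2 percentage points of each other. Related cells whose heavy CDR3 differs count as separate clones here. The knockout supplied 272 clones and the control 130, and the part of both points in these shares was not tested.

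Lambda chains were 4 of 136 control light chains (2.94%, 0.807 to 7.36) and 27 of 306 knockout ones (8.82%, 5.90 to 12.6). The point values differed 3-fold, but the intervals overlapped. Counted with 1 barcode per clone (same IGHV, IGHJ and heavy CDR3 nucleotides), the shares were 3.08% and 9.93%. None of the 47 Jchain-high barcodes was lambda, which allows a share of up to 6.38%, and 4 of the 89 Jchain-low control barcodes were (4.49%, 1.24 to 11.1). In the expression libraries, lambda V transcripts led in 9 of 241 Jchain-low control barcodes (3.73%, 1.72 to 6.97) and 29 of 311 knockout barcodes (9.32%, 6.33 to 13.1). These intervals also overlapped, narrowly.

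The lambda locus (chromosome 16, GRCm38) has few V segments, and each was used differently. IGLV1, at positions 19085017 to 19085460, was the V gene of all 4 control lambda barcodes and of 17 knockout ones. IGLV2 was found in 0 control barcodes, which allows up to 2.21%, and in 8 of 306 knockout barcodes (2.61%, 1.14 to 5.09). IGLV3 was found in 0 control and 2 knockout barcodes. In the expression libraries, IGLV2 led in 0 of 241 control barcodes (up to 1.24%, with an exact upper bound of 1.52%). In the knockout it led in 9 of 311 barcodes (2.89%, 1.33 to 5.42), and the exact intervals overlapped. Every lambda contig kept to its own J and constant cluster. IGLV1 was joined to IGLJ1 and IGLC1 in 4 control and 16 knockout contigs, and to IGLJ3 and IGLC3 in 2 knockout contigs. IGLV2 was joined to IGLJ2 and IGLC2 in 8 knockout contigs, and IGLV3 to the same pair in 3. The commonest lambda CDR3 sequences are shown next because 2 of them occurred in both genotypes and differed by 1 base, in capitals. The IGLV3 junction is the longest light-chain CDR3 in the data, at 15 codons.
IGLV1 with IGLJ1, 2 control and 7 knockout barcodes: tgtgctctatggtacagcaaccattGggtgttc
IGLV1 with IGLJ1, 1 control and 3 knockout barcodes: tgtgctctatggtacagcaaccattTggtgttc
IGLV2 with IGLJ2, 7 knockout barcodes: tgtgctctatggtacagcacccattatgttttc
IGLV3 with IGLJ2, 3 knockout barcodes: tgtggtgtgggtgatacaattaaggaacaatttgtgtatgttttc

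Among kappa chains, the control used IGKV6 and IGKV1 most, and the knockout used IGKV5, IGKV4 and IGKV1 most. The first rank of IGKV5 rested on related cells: with 1 knockout barcode per clone IGKV4 led (37 of 245 against 33). With 1 per heavy-chain family (same IGHV, IGHJ and CDR3 length, each heavy CDR3 within 15% mismatches of at least 1 other version in the family) IGKV5 had 25 of 231, behind IGKV4 (36), IGKV1 (30) and IGKV6 (27). Shares are of kappa barcodes, 132 in the control and 279 in the knockout. IGKV6 was 26 of 132 (19.7%, 13.3 to 27.5) against 27 of 279 (9.68%, 6.47 to 13.8). IGKV5 was 9 of 132 (6.82%, 3.16 to 12.5) against 41 of 279 (14.7%, 10.8 to 19.4). The intervals of both families overlapped between genotypes. IGKV1 was 18.2% in the control and 11.8% in the knockout, IGKV4 8.33% and 13.98%, IGKV8 6.82% and 8.60%, and IGKV3 10.6% and 5.73%. The remaining families with at least 5 barcodes were each under 10% in both genotypes.

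The 2 kinds of control barcodes did not use the families alike. IGKV3 was found in 0 of 47 Jchain-high barcodes, which allows up to 6.38%, and in 14 of 85 Jchain-low kappa barcodes (16.5%, 9.31 to 26.1). IGKV14 ran the other way, with 6 of 47 Jchain-high barcodes (12.8%, 4.83 to 25.7) and 0 of 85 Jchain-low ones (up to 3.53%). For both families the exact intervals, with upper bounds of 7.55% and 4.25% for the counts of 0, did not overlap the other group's. IGKV12 was 1 of 47 and 11 of 85. In the expression library, Jchain-low control barcodes with and without a contig had overlapping intervals for the families compared here. IGKV1 led in 18 of 89 and 22 of 152, IGKV6 in 15 and 20, and IGKV4 in 6 and 26. IGKV3 led in 14 of 89, in 10 of 152 (6.58%, 3.20 to 11.8) and in 24 of all 241 (9.96%, 6.49 to 14.5). The last 2 intervals overlapped the Jchain-high one, so the IGKV3 gap was seen in barcodes with a contig only. IGKV14 led in 0 of 89, in 4 of 152 (2.63%, 0.72 to 6.60) and in 4 of all 241 (1.66%, 0.45 to 4.19). Of its intervals, the one for 152 overlapped the Jchain-high one and the one for 241 did not. IGKV10, singled out after its values were seen, led in 0 of 89 (up to 3.37%) and 10 of 152 (6.58%, 3.20 to 11.8).

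In the expression libraries, which cover nearly all Jchain-low B-marker barcodes, IGKV5 led in 10 of 241 control barcodes (4.15%, 2.01 to 7.50) and 41 of 311 knockout barcodes (13.2%, 9.63 to 17.5). IGKV14 led in 4 of 241 (1.66%, 0.45 to 4.19) and 21 of 311 (6.75%, 4.23 to 10.1). These were the 2 families whose intervals lay apart. Related cells made up part of both knockout shares. With 1 knockout barcode per heavy-chain family, IGKV5 fell to 26 of 269 (9.67%, 6.41 to 13.8) and IGKV14 to 7 of 269 (2.60%, 1.05 to 5.29). Both intervals then overlapped those of the control, which was not reduced to 1 barcode per family. Of its 241 barcodes, 152 had no light-chain contig, so this comparison is one-sided. IGKV6 led in 35 of 241 control barcodes (14.5%) and 28 of 311 knockout barcodes, and IGKV1 in 16.6% and 11.6%. IGKV4, higher in the knockout by contigs, led in 32 of 241 control barcodes (13.3%) and 38 of 311 knockout barcodes (12.2%), so its direction turned.

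**Figure D1:**
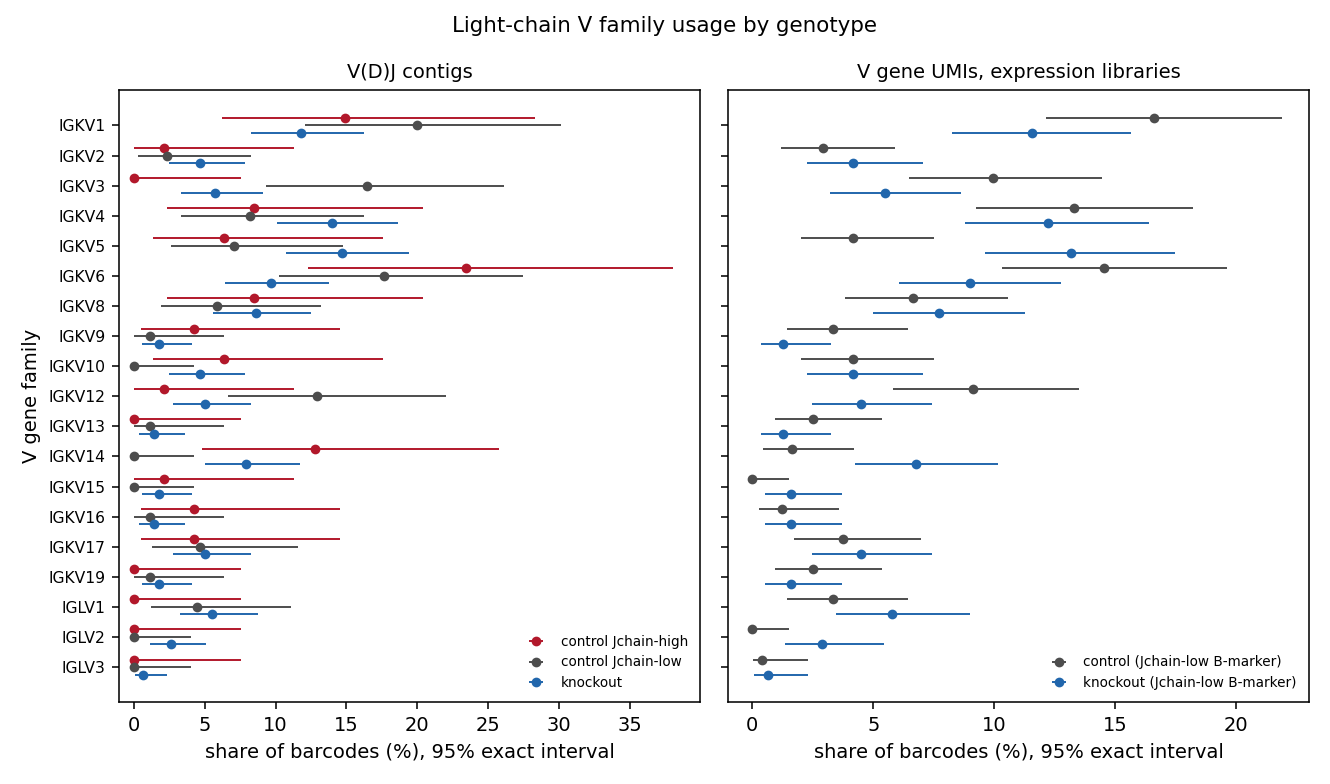
Share of barcodes per light-chain V family, with points for the share and bars for the exact 95% interval. Kappa families are shown as a percentage of kappa barcodes and lambda families as a percentage of light-chain barcodes on the left, and both as a percentage of Jchain-low B-marker barcodes with a V transcript on the right. IGKV5 (4.15% and 13.2%) and IGKV14 (1.66% and 6.75%) are the families whose control and knockout bars lie apart on the right.

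At the level of single genes the counts were small. Of 32 IGKV genes with at least 5 barcodes over both genotypes, 16 had shares at least 2-fold apart (50%), 10 higher in the knockout (31.2%) and 6 lower (18.8%). For 0 of the 32 did the intervals lie apart. In the expression libraries 14 of 39 genes were at least 2-fold apart (35.9%), 7 in each direction (17.9%). For these ratios a count of 0 was set to 3. The counts therefore leave out, for example, a gene with 0 control and 6 knockout barcodes by contigs (0 and 7 by expression). Of 32 genes rated in both sources, 16 were at least 2-fold apart by contigs, and 7 were so in both sources in the same direction. Most knockout barcodes are the same in both sources (302 of 311), so this agreement is not independent support. The 2 genes with intervals apart in the expression libraries were IGKV14-111, with 3 control and 18 knockout barcodes, and IGKV5-39, with 2 and 16.

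The commonest control gene was IGKV6-23 (chromosome 6, positions 70260409 to 70260933, GRCm38), at 11 of 132 kappa contigs (8.33%) against 7 of 279 in the knockout (2.51%). The next were IGKV1-135 (8 control and 9 knockout barcodes), IGKV1-110 (7 and 8), IGKV1-117 (7 and 11), IGKV3-2 (7 and 5) and IGKV12-44 (6 and 4). IGKV6-23, IGKV3-2 and IGKV12-44 were the genes with at least 10 barcodes whose share was at least 2-fold lower in the knockout. By expression, IGKV3-2 was 3.45% and 1.77%, which is just under 2-fold. The 11 IGKV6-23 barcodes of the control came from 11 clones.

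The commonest knockout gene was IGKV14-111 (chromosome 6, positions 68256404 to 68256869), at 19 of 279 (6.81%) against 4 of 132 (3.03%). Its 19 barcodes came from 6 clones, and all 4 control barcodes with it were Jchain-high. IGKV5-39 (positions 69900424 to 69900977 of the same chromosome) followed with 16 knockout barcodes (5.73%) and 1 control barcode (0.76%). These 16 came from 12 clones but from 6 heavy-chain families. IGKV5-48 had 13 knockout and 3 control barcodes, IGKV5-43 had 12 and 5, and IGKV1-117 had 11 and 7. IGKV10-96 and IGKV2-109 each had 10 knockout barcodes, against 2 and 1 in the control. By expression, IGKV10-96 led in 8 of 232 control kappa barcodes (3.45%) and 10 of 282 knockout ones (3.55%), with no such gap. The IGKV2-109 barcodes came from 10 clones and 9 heavy-chain families, so this gene's count did not rest on 1 family. The genes with at least 10 barcodes and a share at least 2-fold higher in the knockout were IGKV14-111, IGKV5-39, IGKV5-48, IGKV10-96 and IGKV2-109. With clones counted once, IGKV14-111 was 4 of 126 in control kappa chains (3.17%) and 6 of 245 in knockout ones (2.45%), so its direction turned.

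J usage was close between the genotypes. IGKJ1 was 28.0% of control kappa barcodes (20.6 to 36.5) and 27.6% of knockout ones (22.4 to 33.2). IGKJ2 was 29.5% (21.9 to 38.1) and 34.8% (29.2 to 40.7), IGKJ4 17.4% (11.4 to 24.99) and 13.3% (9.51 to 17.8), and IGKJ5 25% (17.9 to 33.3) and 24.4% (19.5 to 29.8). With 1 knockout barcode per heavy-chain family, IGKJ2 was 29.0%. Lambda J usage followed the V gene, as given above.

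J usage varied with the place of the V gene on the locus. The kappa V genes extend over about 3 megabases on 1 side of the J cluster, whose first gene Igkj1 lies at positions 70722562 to 70722599 of chromosome 6. V genes were divided at 1595 kb from Igkj1. IGKJ4 and IGKJ5 together made up 44.1% (36.0 to 52.4) of knockout barcodes with a nearer V gene and 29.9% (22.1 to 38.7) of those with a farther one. In the control these shares were 48.8% (37.4 to 60.2) and 32.7% (20.3 to 47.1). The order was the same in both libraries, and the intervals overlapped in each. IGKJ1 was found in 27 of 152 knockout barcodes with a nearer V gene (17.8%, 12.0 to 24.8) and 50 of 127 with a farther one (39.4%, 30.8 to 48.4). These intervals lay apart, and the shares were 19.4% and 47.2% with clones counted once. In the control IGKJ1 was found with 27.5% of nearer and 28.8% of farther V genes, and whether the genotypes differ in this was not tested. The median distance of the V gene from Igkj1 was 977 kb in the control and 1305 kb in the knockout. Within the control it was 907 kb in Jchain-low and 2018 kb in Jchain-high barcodes.

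**Figure D2:**
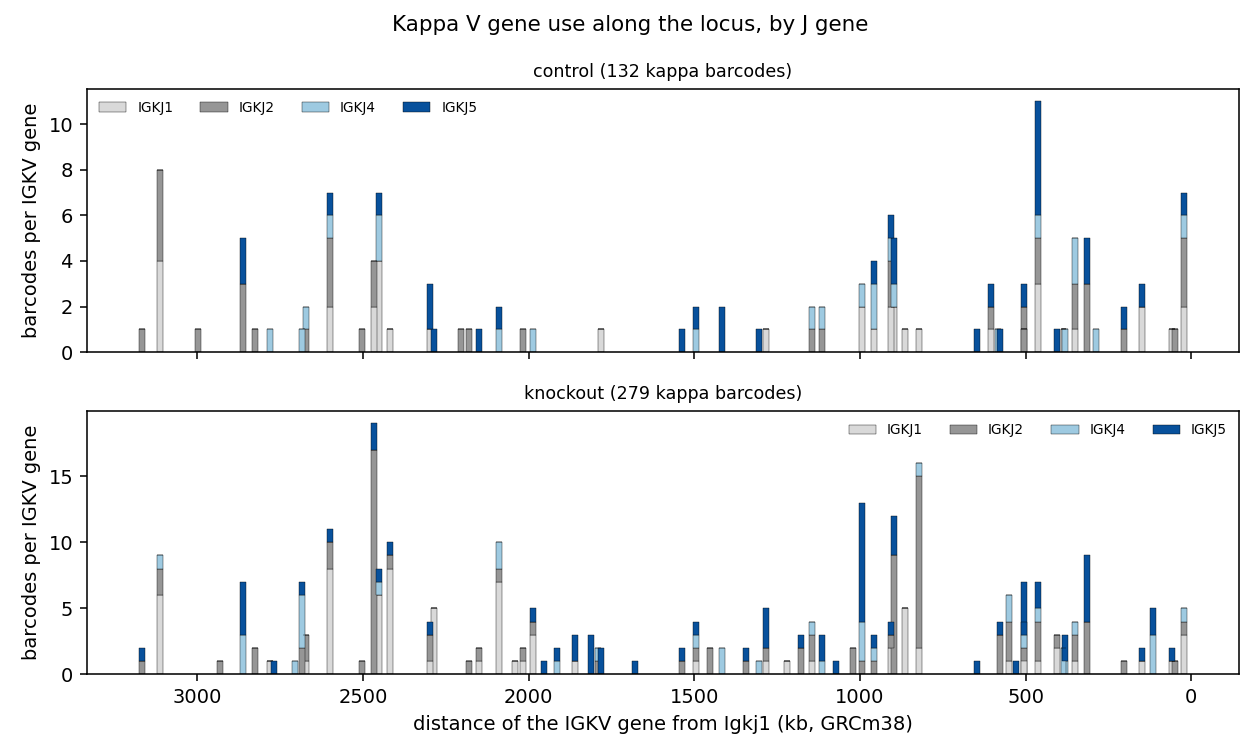
Barcodes per IGKV gene (vertical axis) against the distance of the gene from Igkj1 in kb (horizontal axis, farthest at the left), with bars divided by J gene. In the knockout panel IGKJ1 makes up 50 of 127 barcodes beyond 1595 kb and 27 of 152 nearer than that, and the 2 tallest bars, IGKV14-111 and IGKV5-39, are mostly IGKJ2.

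The kappa CDR3 was 11 codons long in 122 of 132 control barcodes (92.4%, 86.5 to 96.3) and 231 of 279 knockout barcodes (82.8%, 77.8 to 87.0). This is 9 residues without the anchors. The intervals overlapped by less than 1 percentage point. A length of 10 codons was seen in 6 control and 20 knockout barcodes, 12 codons in 3 and 24, and 13 codons in 1 and 4. Lengths of 12 or more codons were 3.03% (0.83 to 7.58) and 10.0% (6.77 to 14.2). With 1 barcode per clone these became 3.17% and 5.71%, since the biggest knockout clone has a CDR3 of 12 codons, and 11 codons became 92.9% and 86.1%. All 4 control lambda barcodes and 24 of 27 knockout ones had 11 codons.

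More barcodes carried 2 light chains in the knockout library, but the intervals of the whole libraries overlapped. The control had 2 of 136 (1.47%, 0.18 to 5.21), both Jchain-high with an IgA heavy chain, and the knockout 21 of 306 (6.86%, 4.30 to 10.3). None of the 89 Jchain-low control barcodes had 2, which allows up to 3.37%. Of the 21 knockout barcodes, 18 held a pair of kappa chains, 2 a kappa and a lambda chain, and 1 a pair of lambda chains. A barcode that holds more than 1 heavy chain may be a pair of cells, and 5 of the 6 knockout barcodes with 2 heavy chains were among the 21. Without those 6, the share was 16 of 300 (5.33%, 3.08 to 8.52).

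The lesser chain held 15.4% to 48.5% of the light-chain UMIs in the knockout, with a median of 32.9%. The most even knockout barcode had 52 UMIs of IGKV2-109 and 49 of IGKV19-93. The least even had 33 of IGKV10-96 and 6 of IGKV6-14. The kappa and lambda pairs were IGLV2 (66 UMIs) with IGKV6-32 (13), and IGKV6-15 (89) with IGLV3 (42). The 2 control barcodes had 3897 and 1678 UMIs (IGKV12-44 and IGKV10-96), and 4010 and 1698 (IGKV6-29 and IGKV4-59). In the expression libraries both V genes had transcripts in 21 of 21 knockout and 2 of 2 control barcodes. The median expression depth was 2959 UMIs in knockout barcodes with 2 light chains and 1 heavy chain, 6574 in those with 2 heavy chains, and 2746 in those with 1 light chain.

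The expression libraries put the genotypes closer together on a related measure. A second V gene with at least 5 UMIs and at least 10% of the V transcripts was found in 44 of 241 Jchain-low control barcodes (18.3%, 13.6 to 23.7) and 69 of 311 knockout barcodes (22.2%, 17.7 to 27.2). This count includes transcripts that are not productive, and the contig tables hold productive contigs alone. What part the lower contig recovery of the control has in the difference between 2 and 21 barcodes was not tested.

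**Figure D3:**
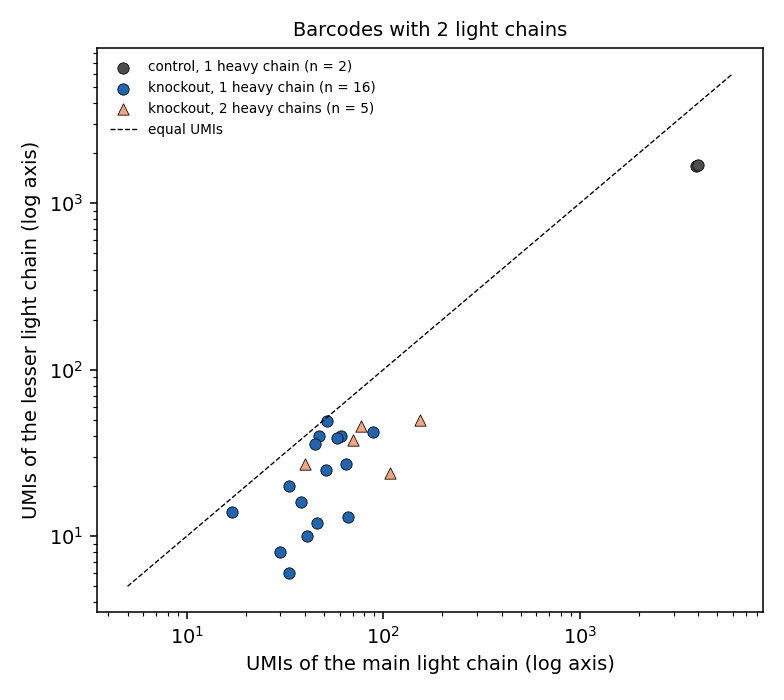
UMIs of the lesser light chain (vertical log axis) against UMIs of the main light chain (horizontal log axis) for each barcode with 2 light chains, with a dashed line where they would be equal. The 21 knockout barcodes lie between 6 and 50 lesser-chain UMIs, and the 2 control barcodes, at 1678 and 1698, overlap almost fully.

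Heavy-chain isotype, read from the constant gene of the IGH contig with the most UMIs, differed between the whole libraries. In the control, 58 light-chain barcodes paired with IGHM (42.6%), 10 with IGHD, 9 with IGHG and 41 with IGHA (30.1%), and 18 had no call. Among the 89 Jchain-low control barcodes IGHM was 57 (64.0%, 53.2 to 73.9), and 15 had no call. IGHA was 0 of these 89, and its exact upper bound of 4.06% overlapped the knockout's IGHA interval (2.28 to 7.16). A constant gene call was missing in 14 of 135 control heavy-chain contigs and 0 of 307 knockout ones. Uncalled barcodes stay in these shares and lower them. They were 16.9% of Jchain-low control and 1.96% of knockout barcodes, and their part in the IGHM difference was not tested. In the knockout, 249 paired with IGHM (81.4%), 15 with IGHD, 23 with IGHG and 13 with IGHA (4.25%), and 6 had no heavy chain. All 41 control IGHA barcodes were Jchain-high, so isotype and Jchain level cannot be told apart there. Among IGHG pairs the control had 3 IGHG1, 2 IGHG2B and 4 IGHG2C, and the knockout 14 IGHG2B, 6 IGHG2C and 3 IGHG3.

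Lambda chains by isotype were few. In the knockout 24 of 249 IGHM barcodes were lambda (9.64%, 6.27 to 14.0), with 0 of 15 IGHD, 1 of 23 IGHG and 2 of 13 IGHA (15.4%, 1.92 to 45.4). In the control 1 of 58 IGHM barcodes was lambda (1.72%, 0.0436 to 9.24), with 1 of 9 IGHG and 0 of 41 IGHA, which allows up to 7.32%. The remaining 2 control lambda barcodes had no isotype call. Within IGHM the lambda intervals of the genotypes overlapped. The barcodes with 2 light chains were 20 IGHM and 1 IGHD in the knockout.

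The amount of light chain differed by isotype and Jchain level. Control IGHA barcodes had 640 to 16457 light-chain UMIs, with a median of 4878. Knockout IGHA barcodes had 11 to 696, with a median of 161, so only the ends of the ranges met. IGHM barcodes had medians of 49 UMIs in Jchain-low control barcodes and 40 in knockout ones. Jchain-low IGHG barcodes had 150 and knockout ones 123. Read depth per UMI differed between the libraries, as given above, and its part in these values was not tested. The commonest family of IGHA kappa chains was IGKV6 in both genotypes, with 11 of 41 control and 3 of 11 knockout barcodes. Knockout IGHM was led by IGKV5 (38 of 225), and Jchain-low control IGHM by IGKV1 (15 of 56).

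**Figure D4:**
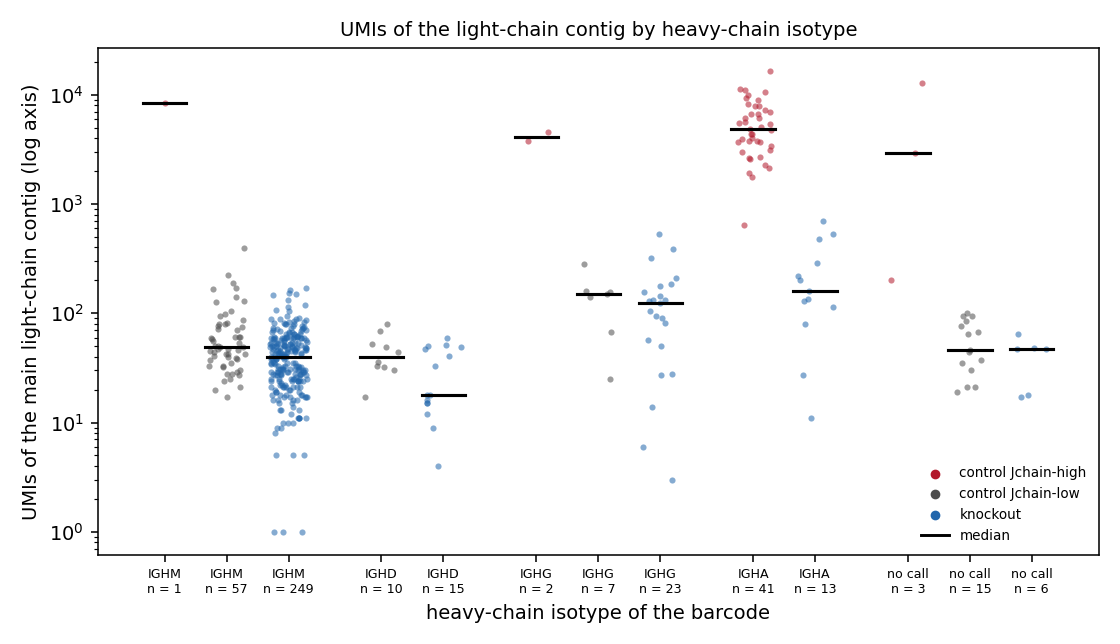
UMIs of the main light-chain contig (log axis) by heavy-chain isotype, 1 point per barcode and a line at the median. Jchain-high control IGHA barcodes center on 4878 UMIs, knockout IGHA barcodes on 161, and IGHM barcodes of the knockout on 40.

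Bases that differ from the germline V gene are the trace of somatic mutation. No germline genome was used, so each V region, from framework 1 to framework 3, was compared with the commonest sequence of its V gene. This sequence was taken over both genotypes, for 46 V genes seen in at least 3 clones. It had to be commoner than any other and found in more than 1 clone, so V genes whose copies all differed were not rated. Barcodes not rated were 9 Jchain-high control, 6 Jchain-low control and 36 knockout ones. Alleles and read errors also appear as differences, and their part was not tested. Of 116 barcodes with a difference, 116 were nearer to their own V gene's commonest sequence than to that of any other rated gene of the same length. At least 1 difference was found in 30 of 38 Jchain-high control barcodes (78.9%, 62.7 to 90.4), with a median of 3.5 and a highest of 22. In Jchain-low control barcodes this was 15 of 83 (18.1%, 10.5 to 28.0), with a highest of 6. In the knockout it was 71 of 270 (26.3%, 21.1 to 32.0), with a highest of 14, and 19.4% with 1 barcode per clone. The Jchain-high interval lay above both others, and those of Jchain-low control and knockout barcodes overlapped.

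By isotype, the control IGHA interval lay above that of IGHM, and the other IGHA and IGHG intervals overlapped those of IGHM. With IGHA they were found in 27 of 32 control barcodes (84.4%, 67.2 to 94.7) and 6 of 12 knockout barcodes (50%, 21.1 to 78.9). With IGHG they were found in 4 of 8 and 9 of 16. With IGHM they were found in 10 of 54 (18.5%, 9.25 to 31.4) and 55 of 221 (24.9%, 19.3 to 31.1), the latter 16.3% with 1 barcode per clone. With IGHD they were found in 0 of 10 control and 0 of 15 knockout barcodes. At least 5 differences were seen in 13 of 32 control IGHA, 2 of 8 IGHG, 2 of 54 IGHM and 2 of 17 uncalled barcodes. In the knockout they were seen in 1 of 12 IGHA, 1 of 16 IGHG and 11 of 221 IGHM barcodes. The most changed light chains were an IGKV14-111 chain with IGHG and a pair of IGKV6-23 chains with IGHA, all Jchain-high and all at 22 differences. In the knockout they were IGKV1-110 (14) with IGHM, IGKV5-39 (13) with IGHM, and an IGLV1 lambda chain (13) with IGHA. The complementarity-determining regions CDR1 and CDR2 held 36.0% of the knockout's 236 differences and 21.9% of the bases compared. These shares were 30.4% and 21.6% in Jchain-high and 47.8% and 23.1% in Jchain-low control barcodes. All barcodes count here, so a substitution shared within a clone is counted once per member and the differences are not independent. Knockout barcodes with a difference were 71 in all and 46 with 1 per clone, and the region shares were not computed per clone.

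**Figure D5:**
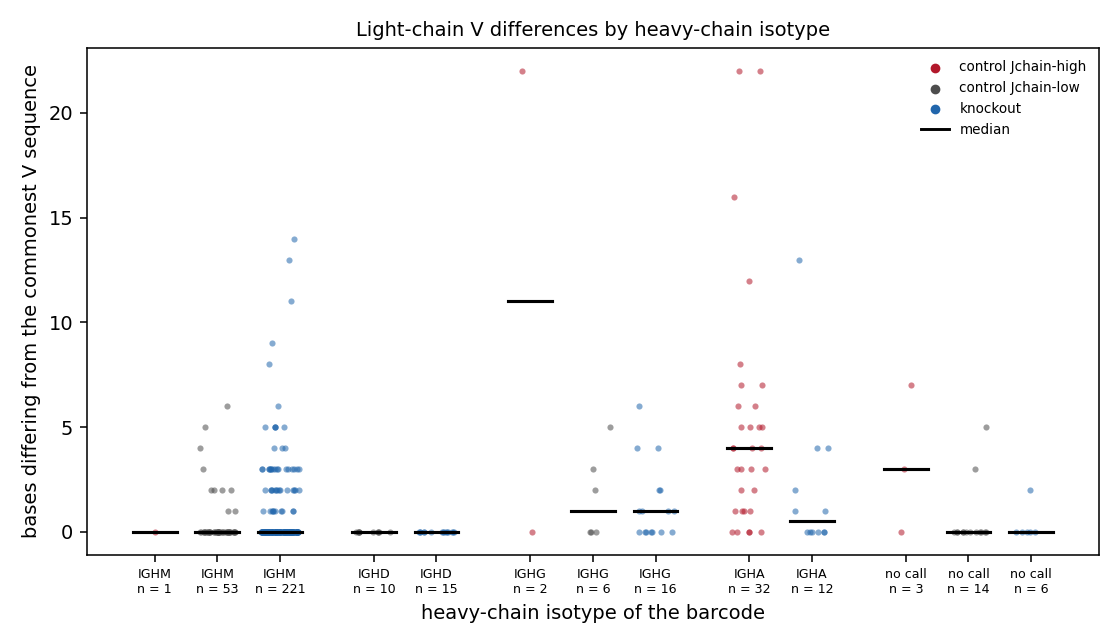
Bases of the light-chain V region that differ from the commonest sequence of the same V gene, by heavy-chain isotype, 1 point per rated barcode and a line at the median. Jchain-high control IGHA barcodes spread from 0 to 22, and all 25 IGHD barcodes lie at 0.

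Expanded clones kept 1 light-chain V and J pair each, with 1 exception. Among barcodes with a heavy chain, 3 of 132 control (2.27%) and 40 of 300 knockout ones (13.3%) belonged to a clone of more than 1 barcode. A further member of a clone is seen only if its contigs were recovered. Light-chain recovery in Jchain-low B-marker barcodes was 36.8% in the control and 96.8% in the knockout, and its part in this difference was not tested. The control had 1 such clone, IGHV6-3 with IGHJ2, whose 3 barcodes shared 1 IGKV1-135 to IGKJ2 junction. The knockout had 12, and 11 of them kept a single light-chain V and J pair. Because the sort pooled 11 mice, a clone cannot be assigned to an animal.

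The biggest knockout clone paired IGHV6-3 and IGHJ3 with IGKV14-111 and IGKJ2 in 14 IGHM barcodes. All 14 shared the heavy CDR3, while the light chain varied. Its 3 CDR3 versions are shown with the variable bases in capitals, followed by the commonest V region of the clone, with the bases that differ from the commonest IGKV14-111 sequence in capitals.
IGKV14-111 CDR3, 12 barcodes: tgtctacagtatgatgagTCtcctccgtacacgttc
IGKV14-111 CDR3, 1 barcode: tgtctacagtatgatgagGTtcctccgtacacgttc
IGKV14-111 CDR3, 1 barcode: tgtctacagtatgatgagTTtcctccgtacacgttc
IGKV14-111 V region, 9 barcodes: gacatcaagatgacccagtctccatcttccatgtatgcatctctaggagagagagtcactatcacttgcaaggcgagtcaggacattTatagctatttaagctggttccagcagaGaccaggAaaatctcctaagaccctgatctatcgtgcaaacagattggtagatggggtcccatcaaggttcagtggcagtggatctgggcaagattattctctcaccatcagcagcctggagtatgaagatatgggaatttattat

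Counted from 1 at the first base of framework 1, with the commonest IGKV14-111 base first, the substitutions A88T in CDR1 and A116G and G123A in framework 2 were each present in 12 of 14 members. The member with the TT version of the CDR3 had 0 differences in its V region. The commonest IGKV14-111 sequence rests on 4 clones. The second clone paired IGHV1-69 and IGHJ2 with IGKV17-121 and IGKJ4 in 4 barcodes. All 4 carried A50G, C198G, C231G, T249C and T255A, none of which lies in CDR1 or CDR2. The commonest IGKV17-121 sequence rests on 3 clones, and whether it is the germline sequence was not tested.

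The exception was the third knockout clone, 3 barcodes with IGHV1-58, IGHJ2 and 1 heavy CDR3. Of these, 2 carried IGKV5-48 with IGKJ5 and 1 carried IGKV5-43 with IGKJ2. A related heavy chain, with the same genes and at most 15% CDR3 mismatches, was paired with IGKV5-43 and IGKJ2 in another 2 barcodes. The light chains differ in V gene, J gene and CDR3. The IGKV5-48 chain of both members also carried G83A and C92T in CDR1 and T154G in CDR2.
IGKV5-48 with IGKJ5, 2 barcodes: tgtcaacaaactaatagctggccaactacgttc
IGKV5-43 with IGKJ2, 1 barcode: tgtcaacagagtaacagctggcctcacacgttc

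The second largest heavy-chain family showed the converse, 1 light-chain junction with many heavy-chain versions. It held 11 knockout IGHM barcodes with IGHV1-9 and IGHJ2. All 11 carried the same IGKV5-39 to IGKJ2 CDR3, which was the light chain found in most clones (9 knockout clones, 13 barcodes, and 0 control barcodes). Their 7 heavy CDR3 sequences are shown with the bases that differ from the commonest one in capitals.
IGKV5-39 with IGKJ2 light chain: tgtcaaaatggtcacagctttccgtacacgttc
heavy CDR3, 3 barcodes: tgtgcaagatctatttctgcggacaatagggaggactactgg
heavy CDR3, 2 barcodes: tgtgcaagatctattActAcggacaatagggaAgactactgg
heavy CDR3, 2 barcodes: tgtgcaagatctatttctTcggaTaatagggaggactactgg
heavy CDR3, 1 barcode: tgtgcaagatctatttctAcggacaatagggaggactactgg
heavy CDR3, 1 barcode: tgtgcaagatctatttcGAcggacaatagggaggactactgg
heavy CDR3, 1 barcode: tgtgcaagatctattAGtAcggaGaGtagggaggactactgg
heavy CDR3, 1 barcode: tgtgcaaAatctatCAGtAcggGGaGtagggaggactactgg

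The heavy CDR3 differed from the commonest by 0 to 8 bases while the light CDR3 did not differ. The version with 8 joined the family through another version and not through the commonest one. The light-chain V region of these barcodes had 0 to 13 differences, with a median of 2, and the barcode with 8 heavy CDR3 differences was the one with 13. The other light chains found in most clones were IGLV1 with IGLJ1 (2 control and 7 knockout clones) and IGKV1-117 with IGKJ1 (1 and 6), both shown earlier.

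Genes of light-chain rearrangement and mutation were read in the light-chain barcodes of the expression libraries. Rag1 and Rag2, which cut the V and J segments, Dntt, which adds bases at the junction, and the surrogate light-chain genes Igll1 and Vpreb2 had 0 UMIs in all groups. Vpreb1, the other surrogate light-chain V gene, had 2 UMIs, both in Jchain-high control barcodes. Vpreb3 was read in 19 of 47 Jchain-high, 33 of 89 Jchain-low and 65 of 306 knockout barcodes, with the depths given above. The repair genes Ung and Msh6 and the polymerase gene Polh had at most 14 UMIs in any group.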

How the data were processed

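The deposited V(D)J tables list full-length, productive contigs with V, J and constant gene calls, region sequences, read counts and UMI counts. In the deposited matrices the values are UMI counts of each gene in each barcode. Cell Ranger 6.0.0 with GRCm38 (mm10) made them, per the submitters' processing notes. A barcode was represented by its light-chain contig with the most UMIs, and its isotype by the IGH contig with the most UMIs. Nothing was filtered in the main values. Light-chain contigs held 17 to 16457 UMIs in the control and 1 to 696 in the knockout. A count of 0 of n allows 3 counts of n. Gene positions came from RefSeq (GRCm38.p6), which matched 72 of 72 IGKV genes. Python 3.11.15, pandas 2.3.3 and SciPy 1.17.1 were used, and the counting steps were tested on simulated contigs. The members, lists and the Jchain threshold were chosen with earlier results of these data known. Named genes are the 6 commonest IGKV genes per genotype with ties, all IGLV and J genes, families with at least 5 barcodes, IGKV genes at least 2-fold apart with at least 10 barcodes, and light chains of the largest or most recurrent clones. Germline sequence was not used, so the commonest sequence took its place. Genes and chains beyond this rule (the IGHV1-9 and IGHV1-58 families, the most changed chains, the 2 genes with intervals apart, and pairs in barcodes with 2 light chains) were named after their values were seen. Alternatives counted 1 barcode per clone or per heavy-chain family, all contigs, contigs with at least 3 UMIs, barcodes with 1 contig of each chain, barcodes with at least 200 genes and at most 10% mitochondrial UMIs, and Jchain-low barcodes alone. Values of some listed genes are not reported here.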

Additional observations from a re-analysis of the deposited data

How the results depend on the processing

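Across 26 shares, 218 recomputed values were compared, and 210 stayed within the counting interval of the share. Many of the 218 could not move, so this count does not measure how stable the shares are. No knockout barcode was Jchain-high, no control barcode failed the filter on genes and mitochondrial UMIs, and every control light-chain contig had at least 17 UMIs. The count of IGKV genes at least 2-fold apart, 16, was 11 without Jchain-high barcodes and with 1 contig of each chain, 13 with 1 member per clone, 1 per heavy-chain family or all contigs, and 16 otherwise. Leaving out the Jchain-high barcodes changed the control most: the IGHA share became 0, the share with 2 light chains 0, and the share with a V difference 18.1%. Counting 1 member per clone lowered the knockout share with a V difference to 19.4%, and to 16.3% within IGHM. Counting 1 member per heavy-chain family, an alternative chosen after seeing the data, lowered these to 17.0% and 13.2%, and IGKJ2 to 29.0% in the knockout. V genes of the expression libraries, also added after seeing the data, moved 0 of the 6 shares they could give. In the knockout 302 of the 311 barcodes counted this way also had a light-chain contig, so its shares could hardly move. In the control these were 89 of 241. A minimum of 3 UMIs per contig, 1 contig of each chain, all contigs, the filter on genes and mitochondrial UMIs and the minimum share for a lesser chain moved none of the shares they applied to beyond those intervals. No barcode occurs in both V(D)J libraries, so that exclusion changed nothing. No paired analysis was possible because each genotype has 1 library and the labels give no replicate numbers. Leaving out a replicate was likewise not possible. The 132 control kappa barcodes limit any family under 5% to a handful of barcodes.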

Other observations

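Constant-region transcripts did not separate the chains in the expression libraries as the V genes did. Iglc2, a lambda constant gene, had a UMI in 89.6% of knockout barcodes with a kappa contig and in 81.5% of those with a lambda contig. Iglc3 had one in 93.2% and 74.1%. Igkc, the kappa constant gene, had one in 92.1% of knockout kappa barcodes and 22.2% of lambda barcodes. In barcodes with no Cd79a or Cd79b UMI, Iglc2 was read in 3.30% and Igkc in 4.95% of 545 knockout barcodes. Median depths were 2755, 3052 and 5153 UMIs in knockout kappa, lambda and non-B barcodes. In Jchain-high control barcodes, all with a kappa chain, the median was 315 Igkc UMIs against 23 Iglc2 UMIs. In Jchain-low control kappa barcodes it was 6 against 6. The V genes and the contigs gave the same chain in all 442 barcodes, so a kappa to lambda ratio taken from these constant genes would differ from both.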
